A study of Mus musculus with 12 samples.

Results

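The subject is the Hox gene family as measured on mouse arrays. Members were chosen by name, as every non-control probe whose gene name in the scanner files was Hox followed by the cluster letter and a number, and the brightest probe stood for a gene. The rule found 44 probes of 39 genes among 39429 probes, with 11 genes of cluster A, 10 of cluster B, 9 of cluster C and 9 of cluster D. The rule itself used no measured difference, but the members were chosen with earlier results of these data known. The cells came from C57BL/6 mouse embryonic stem cells (mESC) with an actin-driven eGFP, grown on mitomycin-treated fibroblast feeders that were depleted before embryoid bodies formed for 4 days, and then selected in serum-free ITSFn medium for 6 days. Step 4 cells had then been grown for 5 days in medium that held bFGF (10 ng/ml), and step 5 cells had further been kept for 7 days in B27 and ascorbic acid at 200 µM without bFGF. At each step unsorted control cells were set against cells enriched on a magnetic column with an antibody to PSA-NCAM, the polysialylated neural cell adhesion molecule, which gave 4 groups of 3 arrays. From the labels it cannot be told apart whether sorting for step 5 came ahead of those 7 days or at their end. Each array carried Cy5-labelled sample RNA and the same Cy3-labelled mESC RNA, with 0 dye swaps, and a value below is a log2 ratio of Cy5 to Cy3 or a difference of such ratios.

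Hox genes encode homeodomain transcription factors and lie in ordered clusters. In the embryo the low-numbered genes at one end of a cluster are active first and furthest forward, up to the hindbrain, and the high-numbered genes later and nearer the tail, while the forebrain lacks Hox expression. Retinoic acid, FGF and Wnt signals and the Cdx factors turn the clusters on, Polycomb proteins hold them silent in stem cells, and PBX and MEIS proteins bind DNA together with HOX proteins.

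Markers of the labelled neural cells were mostly detected but did not all stand above mESC. Sox2, which stem cells also express, lay below mESC in all 4 groups, at -1.38 to -1.62 on average, and the neuron gene Tubb3 was at -0.14 ± 1.43 (SD, n = 3) in step 5 control and 2.56 ± 0.22 in step 5 enriched cells. The mean log2 ratio of the neural stem cell factor Sox1 was 1.94 ± 0.81 (SD, n = 3) in step 4 control, 3.62 ± 0.21 in step 4 enriched, 0.85 ± 0.44 in step 5 control and 3.00 ± 0.43 in step 5 enriched cells, and the young neuron gene Dcx stood at 3.24 ± 1.44, 5.44 ± 1.45, 2.16 ± 0.89 and 5.56 ± 0.52. The stem cell gene Pou5f1 was close to its mESC level in control cells, at -0.67 ± 0.04 and -0.69 ± 0.18, and far below it in enriched cells, at -4.45 ± 0.82 and -4.04 ± 1.02. Replicate number is also slide number. Arrays of a group correlated across genes at 0.897 to 0.963 in enriched cells and at 0.662 to 0.918 in control cells, where the slide 2 arrays stood apart. Slide 2 was scanned on another day and with another software version, so each slide's own difference is given with the Hox genes that passed between enriched and control cells.

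A smaller share of Hox genes than of all genes cleared background on all 3 arrays of a group. The Cy5 signal cleared background on each of the 3 arrays for 12 of 39 genes in step 4 control cells (30.8%), 11 in step 4 enriched cells (28.2%), 16 in step 5 control cells (41%) and 12 in step 5 enriched cells (30.8%). Over all 31733 genes the shares were 63.1, 64.5, 63.2 and 67.3%. In the mESC channel 6 Hox genes (15.4%) were well above background on all 12 arrays, against 57.3% of all genes, and 25 were so on no array. Hoxa7, Hoxb4, Hoxb13, Hoxc4 and Hoxc13 were so on all 12. On every Cy5 array 7 Hox genes were above background, among them Hoxa3, Hoxa7, Hoxb2, Hoxb4, Hoxc4 and Hoxd8, and on none 10, Hoxa10, Hoxa13, Hoxb1, Hoxb8, Hoxc8, Hoxc11, Hoxd1, Hoxd3, Hoxd10 and Hoxd12. A gene below background is not thereby absent, since the probe only bounds its level.

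By position in the clusters, detection was densest at paralogs 1 to 4. Of those 12 genes 8 were above background on all 3 arrays of step 4 control cells, 7 of step 4 enriched, 6 of step 5 control and 8 of step 5 enriched cells. Of the 11 genes of paralogs 5 to 8 the counts were 2, 2, 4 and 3, and of the 16 genes of paralogs 9 to 13 they were 2, 2, 6 and 1. All 4 paralog 4 genes (Hoxa4, Hoxb4, Hoxc4 and Hoxd4) were detected on all 3 arrays of step 4 control cells. No paralog 10 gene was detected on all 3 arrays of any group, and 2 of the 3 (Hoxa10 and Hoxd10) on none. By cluster, 6 of 11 A genes, 7 of 10 B genes, 5 of 9 C genes and 4 of 9 D genes passed the filter for a test, which asked that Cy5 clear background throughout the 3 arrays of some group. The 22 genes that passed are not a sample of the family. Hoxb7, Hoxc6, Hoxc9, Hoxd9 and Hoxd11 passed through step 5 control cells alone, and Hoxb9 and Hoxb13 through the control cells of both steps alone. Hoxa9 and Hoxb6 passed through step 5 enriched cells alone, and Hoxb3 through the enriched cells of both steps alone. Hoxc12 passed through step 4 enriched cells alone and Hoxa4 through step 4 control cells alone.

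**Figure D1:**
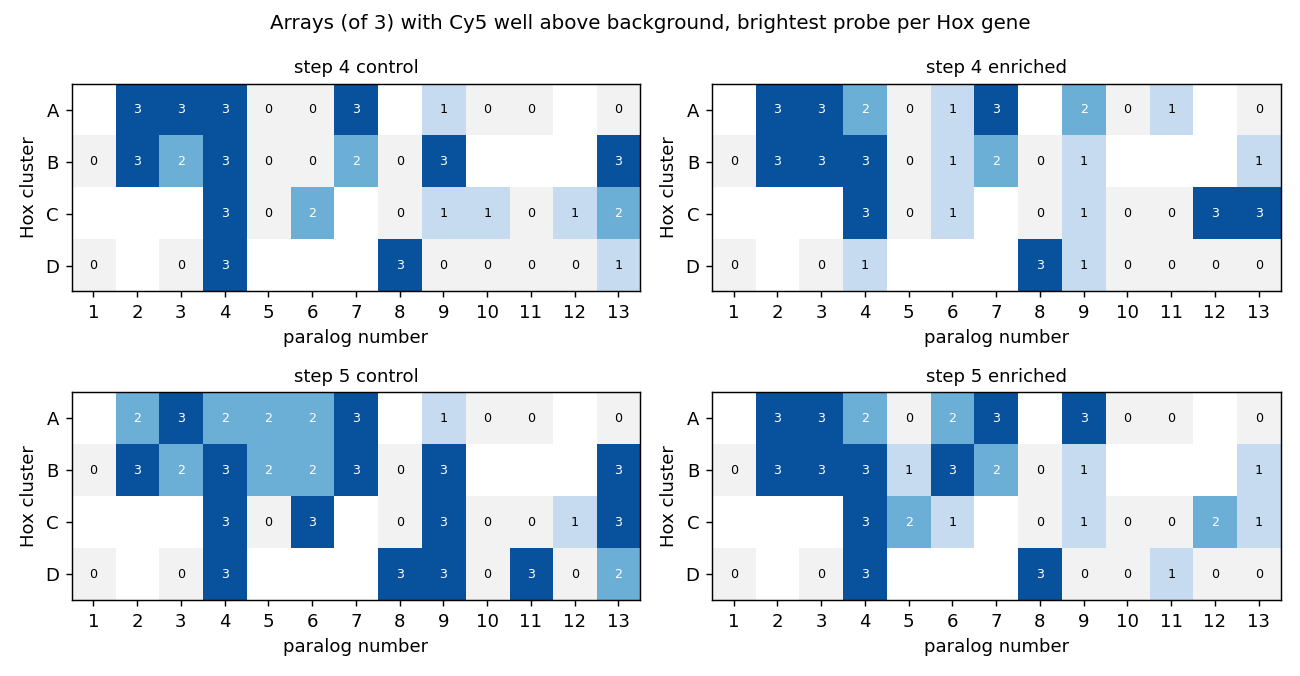
Number of arrays, of 3, on which the brightest probe of 38 of the 39 Hox genes was well above background in Cy5, with clusters A to D in rows, paralog numbers 1 to 13 in columns and a panel for each group (blank squares hold no gene that is shown). In paralogs 9 to 13, step 5 control cells had 6 genes at 3 of 3 arrays and step 5 enriched cells had 1.

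The first comparison set the cells enriched for PSA-NCAM at step 4 against their unsorted controls. Hoxa2, which patterns the hindbrain and second branchial arch, and Hoxb3, another hindbrain gene, were higher in enriched cells, and Hoxb13, a gene of the tail end of the embryo, and Hoxc4, a gene of the neck region, were lower. By limma with Benjamini-Hochberg adjustment over 22313 genes these 2 higher and 2 lower calls were among 22 tested Hox genes, where 31.1% of all genes were called, 15% higher and 16.2% lower. Groups did not overlap in 8 of the 22, against 46.9% of all genes, with 4 higher and 4 lower where 22.1% and 24.8% of all genes were. The median difference of the 22 genes was -0.02 against 0.01 over all genes, and moved to 0.04 when arrays were centred on their median, which moved the median of all genes to 0.13, and to 0.01 without slide 2.

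Hoxa2 stood at 1.87, 0.79 and 1.84 on the control arrays of slides 1, 2 and 3 and at 2.87, 3.08 and 2.59 on the enriched arrays. All enriched arrays lay above all control arrays, and the control array of slide 2 lay far below the other two. The difference was 1.35 (SE 0.34, 2.54-fold, adjusted p = 0.0148), with 1.01, 2.28 and 0.75 on slides 1, 2 and 3. Its Cy3 signal was on no array well above background, so the ratio to mESC rests on a reference signal near background. Hoxb3 stood at 0.31, 0.24 and 0.32 in control and 1.42, 1.11 and 0.81 in enriched cells, again without overlap. It had Cy5 above background on 2 of the 3 control arrays and passed the filter only through enriched cells, where it was high. Its call and its place among the genes without overlap therefore lean upward by construction. It was 1.76-fold higher (difference 0.82, SE 0.25, adjusted p = 0.0306), and its slide differences were 1.10, 0.86 and 0.49. Leaving out any 1 of 5 arrays (each of the 3 step 4 control arrays, and enriched replicates 1 and 2) ended the Hoxb3 call, with adjusted p from 0.0608 to 0.0899. Hoxa2 lost its call without control replicate 2 (0.99, adjusted p = 0.0512), without enriched replicate 2 (1.23, adjusted p = 0.055) and in the scanner's own log ratios (2.03, adjusted p = 0.0959).

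Hoxb13 gave -0.55, -0.21 and -0.87 in control cells and -1.47, -1.51 and -1.27 in enriched cells. No enriched array reached any control array, but Cy5 was above background on only 1 of the 3 enriched arrays, and the gene passed the filter only through control cells. Its log2 ratio fell by 0.87 (SE 0.20, adjusted p = 0.00961), with -0.92, -1.30 and -0.41 by slide. Hoxc4 was at 0.25, 0.36 and 0.12 in control and -0.36, -0.31 and -0.39 in enriched cells, and fell by 0.60 (SE 0.14, adjusted p = 0.0105). Its 3 slide differences were close together, at -0.61, -0.67 and -0.51. Without slide 2 both missed the threshold, Hoxb13 at -0.66 (adjusted p = 0.0654) and Hoxc4 at -0.56 (adjusted p = 0.0574), as did Hoxb3 at 0.80 (adjusted p = 0.187). In the scanner's own log ratios the sizes were larger, at 3.12 for Hoxb3, -2.75 for Hoxb13 and -1.38 for Hoxc4.

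The other 18 tested genes missed the threshold, with differences of up to 1.10 (Hoxb2). The hindbrain genes Hoxa3 (1.07, SE 0.38, adjusted p = 0.0521) and Hoxb2 (1.10, SE 0.55, adjusted p = 0.152) were higher on all 3 slides, and Hoxb4 (0.65, adjusted p = 0.289) on 2. Hoxa3 stood at 1.31, 0.76 and 0.82 in control and 2.47, 2.37 and 1.25 in enriched cells, and Hoxb2 at 1.64, 0.35 and 1.27 and at 3.02, 1.70 and 1.83. The groups overlapped for Hoxa3 and not for Hoxb2. With the slide as a block, which the same-numbered arrays bear out, Hoxa3 (adjusted p = 0.0249) and Hoxb2 (adjusted p = 0.00414) passed as higher, so that 4 Hox genes were higher and 3 lower. Of the 9 tested genes of paralogs 1 to 4 the median difference was 0.65, of the 5 of paralogs 5 to 8 it was -0.07 and of the 8 of paralogs 9 to 13 -0.06. At step 5 the medians of the same genes were 0.004, -0.27 and -0.215. The filter leans these medians by construction. Among paralogs 9 to 13, Hoxb9, Hoxb13, Hoxc9, Hoxd9 and Hoxd11 entered only through control cells, and Hoxa9 and Hoxc12 only through enriched cells. Among paralogs 5 to 8, Hoxb7 and Hoxc6 entered only through control cells and Hoxb6 only through enriched cells. Among paralogs 1 to 4, Hoxb3 entered only through enriched cells and Hoxa4 only through control cells.

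**Figure D2:**
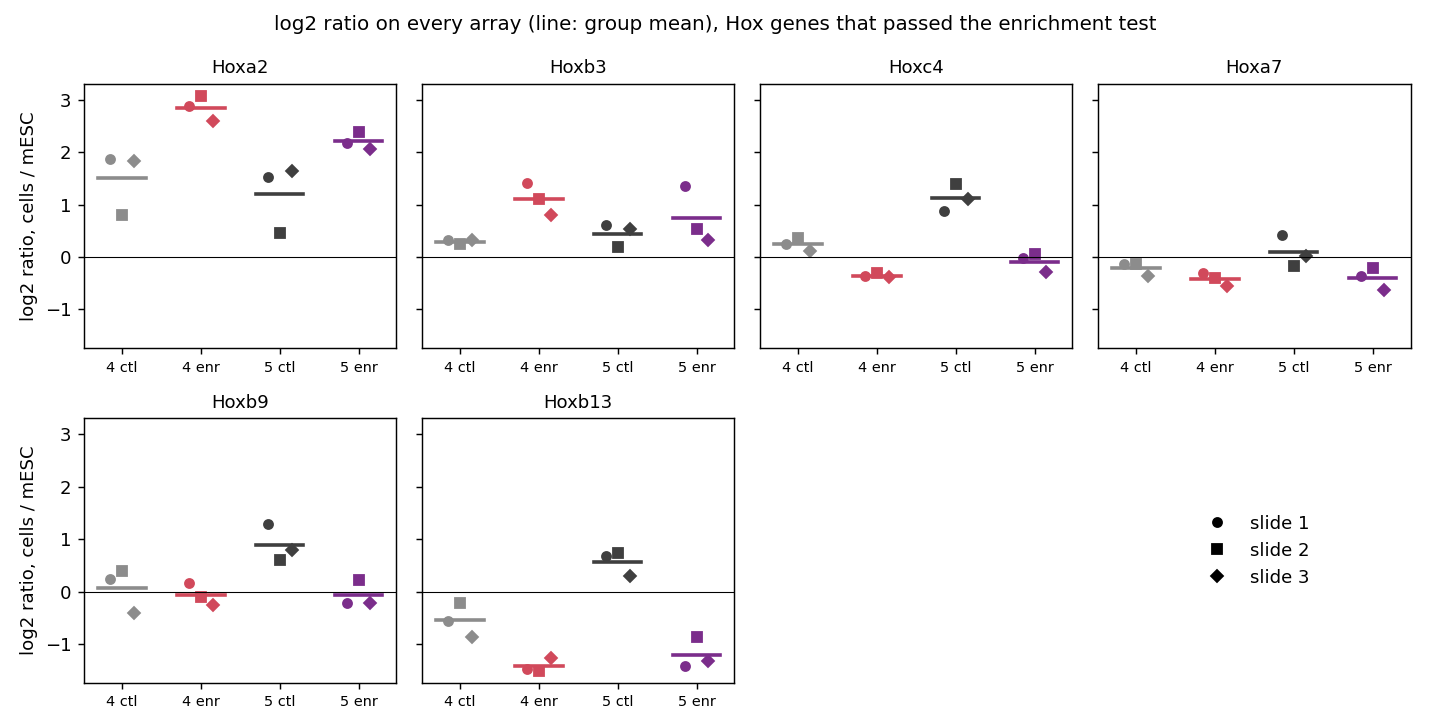
Log2 ratio of sample to mESC on each of 12 arrays for 6 Hox genes that passed the enrichment test at either step. Points are arrays, with circles for slide 1, squares for slide 2 and diamonds for slide 3, and bars are group means of step 4 control, step 4 enriched, step 5 control and step 5 enriched cells. Hoxa2 lies between 2.07 and 3.08 on the enriched arrays, and Hoxb13 between -1.51 and -0.86.

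At step 5 the same question had more lower than higher calls, with the lower ones near the share over all genes. Hoxb13, Hoxc4, Hoxb9 and Hoxa7 were among the genes lower in enriched cells and Hoxa2 was higher. In all, 5 and 1 of the 22 passed, where 40.5% of all genes were called, 20.2% lower and 20.3% higher. Groups did not overlap in 9 of the 22, against 51.2% of all genes, with 1 of the 9 higher and 8 lower where 25.6% of all genes were higher and 25.6% lower. The median of the 22 genes was -0.20 against -0.01 over all genes. With the arrays centred on their median it was -0.255 while that of all genes was 0.13, in the scanner's own log ratios it was -0.859, and over all 39 genes with no filter it was -0.099. Hoxb7, Hoxc6, Hoxc9, Hoxd9 and Hoxd11 entered only through step 5 control cells, and Hoxb9 and Hoxb13 only through control cells. For these genes both this median and the count without overlap, which holds Hoxb7, Hoxb9 and Hoxb13, lean downward by construction. So do the lower calls of Hoxb9 and Hoxb13. Hoxa9, Hoxb3 and Hoxb6 entered only through enriched cells, which leans the median the other way.

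Hoxb13 was at 0.68, 0.75 and 0.29 in step 5 control cells and at -1.42, -0.86 and -1.33 in enriched cells. Every control array lay above the mESC level and every enriched array below it. Its difference was -1.77 (SE 0.20, 3.42-fold, adjusted p = 0.000181), with -2.10, -1.60 and -1.62 by slide. Cy5 was above background on only 1 of the 3 enriched arrays, and the gene passed the filter only through control cells, where it was high. Hoxc4 was at 0.88, 1.39 and 1.11 in control and -0.03, 0.05 and -0.29 in enriched cells. Every control array lay above every enriched one, and the gene was 2.32-fold lower (-1.21, SE 0.14, adjusted p = 0.000201), with -0.91, -1.33 and -1.40 by slide.

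Hoxb9, a gene of the thoracic region, stood at 1.29, 0.60 and 0.80 in control and -0.22, 0.22 and -0.21 in enriched cells. The groups did not overlap, but only 1 of the 3 enriched arrays had Cy5 above background, and the gene passed the filter only through control cells, where it was high. The difference of -0.97 (SE 0.24, adjusted p = 0.00992) came from -1.51, -0.38 and -1.01 by slide. Hoxa7, also of the trunk, was at 0.43, -0.17 and 0.02 in control and -0.36, -0.21 and -0.63 in enriched cells, with the lowest control array barely above the highest enriched one. It was lower by 0.49 (SE 0.17, adjusted p = 0.0382), with -0.79, -0.03 and -0.65 by slide. Hoxa2 was at 1.52, 0.47 and 1.63 against 2.17, 2.38 and 2.07, and was 2.00-fold higher (1.00, SE 0.34, adjusted p = 0.0394), with 0.65, 1.92 and 0.43 by slide.

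Hoxb13, Hoxc4 and Hoxb9 kept their step 5 calls under every alternative in which they could be tested, but not their sizes. Hoxb13 ranged from -4.34 to -1.66, Hoxb9 from -3.01 to -0.77 and Hoxc4 from -1.92 to -1.08, the largest falls being those in the scanner's own or the deposited log ratios, which carry no offset of 50. Hoxa2 lost its call under 10 of 23 alternatives, among them the loss of step 5 control replicate 2 (0.63, adjusted p = 0.132), of any 1 step 5 enriched array, or of step 4 enriched replicate 1 or 2. Hoxa7 lost it under 9 of 24, among them the loss of step 5 control replicate 1 (-0.32, adjusted p = 0.13) or 3, of step 5 enriched replicate 1 or 3, or of step 4 enriched replicate 2. The 16 other tested genes differed by -0.44 (Hoxc13, adjusted p = 0.0527) to 0.80 (Hoxb2, adjusted p = 0.272). Hoxb3, called at step 4, was at 0.61, 0.18 and 0.54 in step 5 control and 1.35, 0.53 and 0.33 in step 5 enriched cells, with overlap (0.29, adjusted p = 0.381). Hoxb2 passed with the slide as a block (adjusted p = 0.0125), which made 2 higher calls.

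**Figure D3:**
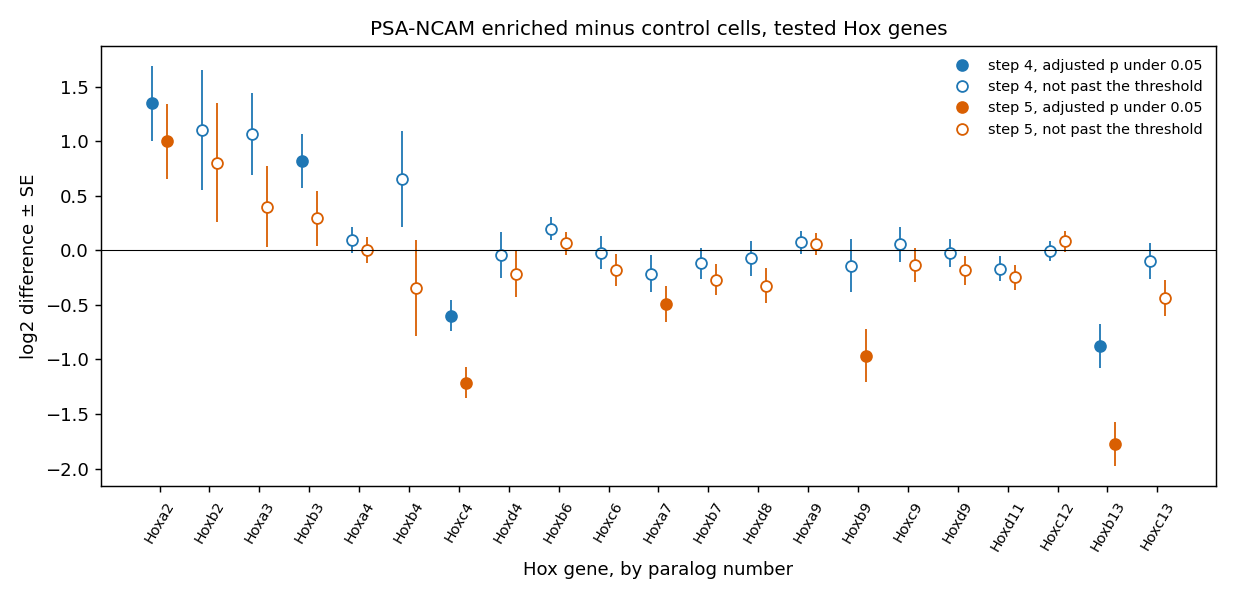
Log2 difference between enriched and control cells for 21 of the tested Hox genes in order of paralog number, at step 4 (blue) and step 5 (orange), with bars for the SE of the moderated model and filled points for adjusted p under 0.05. Among paralogs 2 and 3 all 4 tested genes have values above 0 at both steps, from 0.29 to 1.35. Of these only Hoxa2 passed at both steps, and Hoxb3 entered only through enriched cells. Hoxb13 reaches -1.77.

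Promoters were looked up for genes that passed. RefSeq's GRCm38.p6 promoter table held 22 of the 39 genes, and among the 7 that passed it held Hoxa2, Hoxa7 and Hoxc4, whose 250 bases before the start are shown, for 1 gene that was higher and 2 that were lower. Capitals mark CpG pairs.
Hoxa2 (chr6:52164832-52165081, minus strand): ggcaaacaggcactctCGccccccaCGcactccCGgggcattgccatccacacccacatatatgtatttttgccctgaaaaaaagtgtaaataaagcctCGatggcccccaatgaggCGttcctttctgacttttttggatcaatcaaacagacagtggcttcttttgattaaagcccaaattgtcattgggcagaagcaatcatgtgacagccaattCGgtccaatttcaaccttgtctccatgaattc
Hoxa7 (chr6:52218574-52218823, minus strand): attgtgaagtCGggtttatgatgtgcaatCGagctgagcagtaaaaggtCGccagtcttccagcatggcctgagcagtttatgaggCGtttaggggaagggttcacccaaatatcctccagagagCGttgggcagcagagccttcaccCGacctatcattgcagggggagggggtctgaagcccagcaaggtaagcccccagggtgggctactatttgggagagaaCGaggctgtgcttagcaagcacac
Hoxc4 (chr15:103034145-103034394, plus strand): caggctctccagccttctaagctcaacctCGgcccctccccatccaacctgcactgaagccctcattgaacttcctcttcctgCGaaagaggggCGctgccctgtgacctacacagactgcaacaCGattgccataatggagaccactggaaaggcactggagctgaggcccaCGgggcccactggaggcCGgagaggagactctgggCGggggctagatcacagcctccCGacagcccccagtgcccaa
They hold 6, 7 and 8 CpG pairs. The 24 Hox promoters in the table ran from 2 to 35, with 13 as the upper of their middle values. The 32851 promoters of the table had a median of 6. TGATNNAT, a core shared by HOX and PBX proteins, was searched on both strands and matched in Hoxa2 but not in the other two, and in 4 of the 24 Hox promoters against 7.7% of all. AGGTCA, a motif of retinoid receptors, was searched likewise. It matched in Hoxc4 and in 6 of the 24, against 14% of all. These matches describe the letters only.

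Between steps no Hox gene passed. These comparisons use the arrays of the enrichment comparisons again and are no separate evidence. In control cells step 5 minus step 4 ran from -0.29 (Hoxa2) to 1.12 (Hoxb13), with adjusted p of at least 0.147 by limma, and 5 Hox genes had an unadjusted p under 0.05. No gene of the array passed in that contrast (0% called), but 374 rose and 44 fell without step 5 control replicate 2, 56 and 2 without step 4 control replicate 1, and 73 and 11 without slide 2. Hoxb13 went from -0.55, -0.21 and -0.87 to 0.68, 0.75 and 0.29 (difference 1.12, SE 0.20) and Hoxc4 from 0.25, 0.36 and 0.12 to 0.88, 1.39 and 1.11 (0.88, SE 0.14). In 9 of 22 genes the groups did not overlap, against 12.6% of all genes, and in all 9 the step 5 arrays were the higher ones, against 7.34% of all genes higher and 5.24% lower. Since 5 of the 22 passed the filter only through step 5 control cells, this count leans upward by construction.

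In enriched cells the lowest difference was -0.64 (Hoxa2), with adjusted p of at least 0.285 and 0 Hox genes past an unadjusted 0.05, while 6.42% of all genes passed, 3.96% higher and 2.46% lower. Groups did not overlap in 4 of the 22, Hoxb6 and Hoxc4 higher and Hoxa2 and Hoxc13 lower at step 5, against 28.8% of all genes, 14.5% higher and 14.3% lower. Hoxb6 passed the filter only through step 5 enriched cells, so its place in this count is favoured by construction. The difference between the enrichment effects of both steps was largest for Hoxb4 (-0.999, SE 0.62, adjusted p = 0.829). It was -0.90 for Hoxb13 (SE 0.29, adjusted p = 0.491) and -0.61 for Hoxc4 (SE 0.20, adjusted p = 0.503), and no gene passed, Hox or other (0% called). Unadjusted, 3 Hox genes had p under 0.05. The stronger falls at step 5 are therefore not shown to differ from those at step 4.

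**Figure D4:**
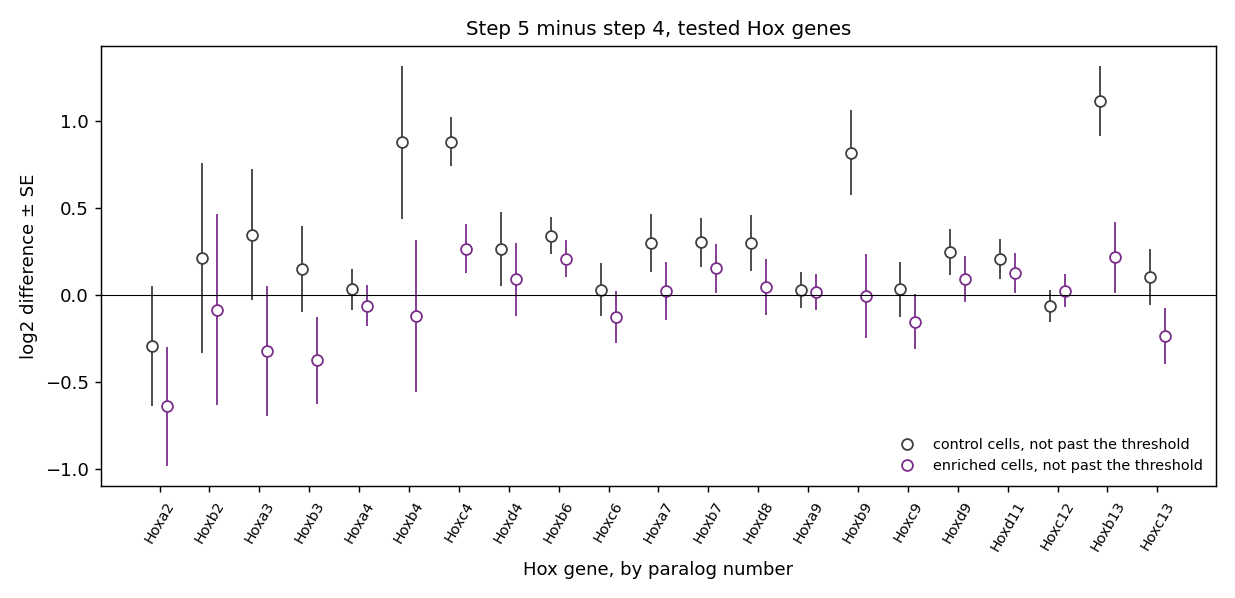
Log2 difference between step 5 and step 4 for 21 of the tested Hox genes, in control cells (dark grey) and enriched cells (purple), with bars for the SE of the moderated model. All points are open because no gene passed the threshold; in control cells Hoxb13, Hoxc4, Hoxb4 and Hoxb9 lie between 0.82 and 1.12.

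Against mESC the 6 genes measured in both channels split. The test sets the mean ratio of a group against 0, so it leaves out the spread of mESC RNA, and a dye effect of the probe cannot be told apart from it. In step 4 control cells Hoxb13 was lower (-0.55, SE 0.14, limma adjusted p = 0.0109, but -0.38 with adjusted p = 0.101 when step 4 control replicate 3 was left out) and no gene higher, where 43.1% of 18039 genes were called, 21.1% lower and 22% higher. In step 4 enriched cells Hoxb4, a gene of hindbrain and blood stem cells, was higher (1.22, SE 0.31, adjusted p = 0.00464) and 5 were lower, among them values from -0.36 (Hoxc4) to -1.42 (Hoxb13), where 70.3% of all genes were called, 32.7% higher and 37.6% lower. In step 5 control cells Hoxc4 (1.13, SE 0.10, adjusted p = 1.26e-05), Hoxb4 (1.44, SE 0.31, adjusted p = 0.00318) and Hoxb13 (0.57, SE 0.14, adjusted p = 0.00736) were among 4 higher genes and none was lower, where 48.3% of all genes were called, 25.4% higher and 22.9% lower. In step 5 enriched cells Hoxb4 was higher (1.10, adjusted p = 0.00778) and Hoxb13 (-1.20), Hoxc13 (-0.62) and Hoxa7 (-0.40) lower, where 74.1% of all genes were called, 34.6% higher and 39.5% lower. Cy5 of Hoxb13 was above background on only 1 of 3 enriched arrays at each step, and that of Hoxc13 on only 1 of 3 at step 5.

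For genes that mESC did not show above background the ratio was taken per channel after loess and Aquantile scaling and is open to dye bias. The mESC level was the larger of the measured Cy3 value and the lowest value called above background on the array. For Hoxa2 and Hoxa3 that was the measured value in every group given, and for Hoxb2 and Hoxb3 in some. The folds therefore rest on a reference signal near background, and none is a guaranteed minimum. Hoxa2 was 2.83-fold above mESC in step 4 control, 7.19-fold in step 4 enriched and 4.62-fold in step 5 enriched cells. Hoxb2 was 2.08-, 4.55-, 2.36- and 4.29-fold above it in the 4 groups in the order of step 4 control, step 4 enriched, step 5 control and step 5 enriched. Hoxa3 was 1.95-, 4.09-, 2.48- and 3.28-fold above it. Hoxb3 was 2.16-fold above mESC in step 4 enriched and 1.66-fold in step 5 enriched cells.

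There were 10 genes above background in some groups and on no array of another, and their ratios ran from -0.44 to 0.46 over all 12 arrays. Hoxd9, of the limb and trunk, had Cy5 above background on 0, 1, 3 and 0 arrays of step 4 control, step 4 enriched, step 5 control and step 5 enriched cells. Its ratios were 0.03, -0.12 and 0.25, then 0.22, -0.11 and -0.04, then 0.24, 0.34 and 0.32, then 0.30, 0.03 and 0.02. The difference between step 5 enriched and control cells was -0.18 (adjusted p = 0.301), which missed the threshold. Hoxd11, of limb and kidney, was above background on 0, 0, 3 and 1 arrays, with 0.24, 0.11 and 0.14, 0.09, 0.02 and -0.12, 0.26, 0.46 and 0.40, and -0.01, 0.32 and 0.06. The 3 highest of its ratios belong to 2 step 5 control arrays and 1 enriched array. Hoxb6 was above background on 0, 1, 2 and 3 arrays, with -0.13, -0.44 and -0.11, 0.03, -0.04 and -0.07, 0.10, 0.11 and 0.14, and 0.12, 0.15 and 0.27. Its step 5 values lay above all those of step 4, but it passed the filter only through step 5 enriched cells, where its mean was highest.

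The other 7 were detected on at most 2 arrays of a group and were not tested. Hoxa5 was above background on 2 step 5 control arrays alone, with ratios of 0.09, -0.23 and 0.03 in step 4 control, 0.07, -0.15 and 0.08 in step 4 enriched, 0.41, 0.07 and 0.17 in step 5 control and 0.21, 0.05 and -0.03 in step 5 enriched cells. Hoxa6 had 0, 1, 2 and 2 such arrays, with -0.38, 0.13 and -0.16, -0.15, -0.20 and 0.13, 0.11, 0.03 and -0.02, and 0.18, -0.06 and -0.12. Neither shows a group apart from the rest. Hoxa11 was above background on 1 step 4 enriched array, with 0.05, 0.16 and -0.01, 0.06, 0.34 and 0.06, 0.08, 0.07 and -0.08, and 0.03, 0.06 and 0.01. Hoxb5 had 0, 0, 2 and 1 such arrays, with -0.02, -0.10 and 0.11, -0.28, 0.05 and 0.03, 0.10, -0.11 and 0.19, and 0.12, -0.10 and 0.28. Values of both genes overlapped in all groups. Hoxc5 was detected on 2 step 5 enriched arrays, with 0.15, -0.03 and 0.03, 0.08, 0.01 and 0.03, 0.05, -0.01 and -0.03, and 0.29, 0.03 and 0.31. Hoxc10 was detected on 1 step 4 control array, with 0.11, 0.11 and -0.01, -0.08, 0.09 and -0.01, -0.13, 0.10 and -0.25, and 0.04, -0.10 and -0.12. Neither gene had a group that lay apart from all others. Hoxd13, of the digits, was detected on 1 step 4 control and 2 step 5 control arrays, with 0.05, -0.10 and 0.09, -0.03, -0.18 and 0.05, 0.37, 0.16 and -0.03, and -0.09, -0.09 and -0.32, so that all 3 step 5 enriched values lay below those of step 5 control cells.

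Of the 39 genes 5 had a second probe. For Hoxa13 neither probe was above background on any array. The second Hoxd11 probe was above background on no array either, so it does not repeat the step 5 control signal of the brighter Hoxd11 probe. The Hoxb3 probe used above lies at chr11:96209002-96209061 (mm9, plus strand). Its second probe was above background on 0, 1, 0 and 2 arrays of step 4 control, step 4 enriched, step 5 control and step 5 enriched cells, with mean ratios of 0.045, -0.09, 0.15 and 0.26, so it does not repeat the step 4 difference of the brighter one. Over all 44 probes the longest run shared with a probe of another Hox gene was 11 bases.

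Other probes inside the spans of the clusters were looked at after their values were seen. Of 17, 8 were tested and 7 were above background on no array. Between Hoxb13 and Hoxb9, a probe for an unnamed transcript at chr11:96125513-96125572 (mm9, plus strand) stood at 0.81, 1.09 and 0.55 in step 4 control and -0.13, -0.18 and 0.08 in step 4 enriched cells. It was above background on no step 4 enriched array, and the fitted difference was -0.89. At step 5 it was at 0.94, 1.11 and 0.99 against -0.11, -0.11 and -0.09 (-1.12, SE 0.14), with no overlap at either step. A transcript named Gm11538, at chr11:96066735-96066794, was above background only in step 5 control cells, at 0.16, 0.33 and 0.32, against -0.17, 0.06 and -0.04 in step 5 enriched cells, and it entered the fit only through the group where it is high. Beside Hoxa3, a plus-strand probe that overlaps the Hoxa3 probe on the opposite strand stood at mean ratios of 1.98, 2.48, 1.75 and 2.45 in the 4 groups. The antisense transcript Hoxa11os differed by -0.07 at step 4 and 0.02 at step 5. Since these probes were picked on their values, no p is given for them.

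For the lists that follow, 15% of all genes were called higher and 16.2% lower at step 4, and 20.3% and 20.2% at step 5. Of the 9 PBX, MEIS and PKNOX genes, the partners of HOX proteins, 6 rose at step 4 and 0 fell, with a median of 0.64 against 0.01 over all genes, and the largest rises were those of Meis2 (1.69, SE 0.49, limma adjusted p = 0.025) and Pbx3 (1.44, SE 0.44, adjusted p = 0.0323). At step 5, 4 rose and 2 fell, with Pbx3 at 1.62 (adjusted p = 0.0148) and Meis2 at 1.51 (adjusted p = 0.0314) highest, and Pbx2 (-0.40, adjusted p = 0.0245) and Pknox1 (-0.28, adjusted p = 0.0412) lower. Of 4 tested genes among the Cdx and other inducers, Cdx1, which drives posterior Hox genes, fell by 2.40 (SE 0.34, adjusted p = 0.000979) at step 4 and by 2.45 (adjusted p = 0.000495) at step 5, and none rose. Of 16 retinoid genes 2 rose and 2 fell at step 4, and 3 rose and 1 fell at step 5, at each step a smaller share than the 31.1% and 40.5% called over all genes. The retinoic acid receptor Rarg fell by 1.71 and 0.92 at the 2 steps, and Aldh1a1, which makes retinoic acid, rose by 2.47 (SE 0.44, adjusted p = 0.00176) at step 5.

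Of 9 hindbrain regulators 5 rose and 1 fell at step 4, where Irx2 rose by 1.30 (adjusted p = 0.00324) and Irx3 by 1.17 (adjusted p = 0.0108) and Phox2a fell by 1.60 (adjusted p = 0.0133), and 5 rose and 0 fell at step 5, led by Egr2, which marks hindbrain segments (1.25, adjusted p = 0.0258), and Irx1 (1.13, adjusted p = 0.0018). Of 12 genes listed as forebrain factors 4 rose and 2 fell at step 4, and 5 rose and 1 fell at step 5. Six6 was at 1.96 at step 4, Nkx2-1 at 1.88 at step 5, and Hesx1 at -1.37 and -2.29. Against the same shares over all genes, of 22 Polycomb and trithorax genes 6 rose and 8 fell at step 4 and 6 rose and 11 fell at step 5, where Suz12, a core subunit of the complex that silences Hox clusters, fell by 1.42 (SE 0.17, adjusted p = 0.00037) and 1.54 (SE 0.17, adjusted p = 0.000146), while Phc2 rose by 1.21 at step 4 and Kdm6b by 0.70 at step 5. Of 13 motor and spinal genes 3 rose at step 4 and 2 at step 5, with none falling, and of the 2 ParaHox Gsx genes none passed.

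Markers of other cells differed between enriched and control cells to unequal degrees, and their part in the Hox differences was not tested. The shares of all genes called were, as above, 15% higher and 16.2% lower at step 4 and 20.3% and 20.2% at step 5. All 12 pluripotency genes fell at both steps, and their median ratio lay between -0.87 and -0.61 on the control arrays and between -4.61 and -2.66 on the enriched arrays. The mESC channel, which holds such cells' RNA, showed Hoxa7, Hoxb13 and Hoxc4 above background on all 12 arrays, and these 3 are among the 5 genes that were lower in enriched cells at step 5. Hoxb9, also among the 5, was so on 7 of 12. Hoxb4 and Hoxc13 were so on all 12 as well, but were not called at step 5 (-0.35 with limma adjusted p = 0.568, and -0.44 with 0.0527). In step 5 control cells Hoxc4 and Hoxb13 stood above the mESC level (1.13 and 0.57). Of 18 fibroblast and mesenchyme genes 3 rose at step 4 (Prrx1 by 1.22 the most), close to the share over all genes. None passed at step 5. Their median difference was 0.73 at step 4 and 0.58 at step 5, against 0.01 and -0.01 over all genes. Array medians of the ratio were 1.14 to 1.99 in step 4 control and 2.22 to 2.81 in step 4 enriched cells. They were 2.15 to 3.55 in step 5 control and 3.54 to 4.06 in step 5 enriched cells. Of 9 endoderm and epithelial genes 2 fell at step 4 and 3 at step 5, led by Cdh1 at -3.47 and -3.999. The 2 that fell at step 4 were the epithelial genes Cdh1 and Epcam. At step 5 the only other to pass was the endoderm gene Afp (-3.33, limma adjusted p = 0.0485). Of 10 neural crest genes 1 fell at step 4 (Foxd3, -2.27) and 1 fell and 2 rose at step 5, Sox10 by 1.97 the most. In these bulk samples fewer cells of a type and less RNA per cell cannot be told apart.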

How the data were processed

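Gene expression was measured on 12 2-colour Agilent arrays, 3 biological replicates in each of 4 groups, with Cy5 for the sample and Cy3 for mESC RNA. Spot intensity and background intensity were deposited per array, and the log10 ratio of red to green was the scanner's own, per the file headers. The deposited log2 table equalled that log10 ratio turned to log2, within 0.001, for 99.4 to 99.5% of probes. Mean spot signals were corrected against median local background with normexp (offset 50), normalized by loess within arrays and fitted over all 4 groups with limma 3.58.1 in R 4.3.3, after control spots and 128 to 298 outlier spots per array were left out. The brightest probe stood for a gene, and a gene was tested where its Cy5 signal cleared background on each of the 3 arrays of any group (against mESC, also Cy3 on all 12). P-values were adjusted by Benjamini-Hochberg over all genes tested, with a threshold of 0.05, and measure the spread between 3 samples a group. The code was tested on simulated data.

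Probe coordinates are mm9, from the files. Genes were named by RefSeq accession for 26581 probes, by another accession for 105, by symbol for 2531 and by synonym for 472, and 9740 kept the file's name. Hox genes that passed, those not above background in some group, and the 2 list genes changed most each way were named. Some genes counted among these, and 1 sequence, are not reported here by name. Members and lists were chosen with earlier results of these data known. Same-numbered arrays share a slide, and their deviations correlated at 0.13 to 0.747 between the groups compared, so the slide also entered as a block. The number of arrays limits the precision.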

Additional observations from a re-analysis of the deposited data

Results flagged for a closer look

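In both of these the signal lies in a probe or gene that entered no test. The second Hoxb3 probe was well above background on 2 of 3 step 5 enriched arrays and on 0 of 3 step 5 control arrays. The Hoxc5 probe was likewise above background on 2 step 5 enriched arrays and on no step 5 control array. Neither difference was tested.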

How the results depend on the processing

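Of 762 values of single genes under alternatives, 692 kept their direction and side of the threshold, 52 lost the call, 14 gained one and 4 reversed. The reversed ones were uncalled: Hoxc13 at step 4 (0.16 without slide 2, -0.195 to 0.063 with 1 array left out, 0.063 being without step 4 control replicate 2), Hoxa3 at step 5 (-0.076 without slide 2) and Hoxb3 at step 5 (-0.014 to 0.497 with 1 array left out, -0.014 being without step 5 enriched replicate 1). Causes were not tested, except that stricter filters test fewer genes and a slide left out leaves fewer arrays. Slide 2 left out and the Cy5 level alone were chosen after seeing the data.

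Step 4 enrichment had 2 higher Hox genes, but 1 with the scanner's log ratio, the deposited table or without slide 2, 0 where all 12 arrays had to be above background, and 4 with the replicate block. Its 2 lower genes became 1 with the 12-array filter or Cy5 alone and 0 without slide 2. At step 5 the 1 higher gene became 0 with the scanner's ratio, the deposited table, no filter, the 12-array filter or Cy5 alone, and 2 with the block, and the 5 lower became 3 with the 12-array filter. Against mESC, step 4 control cells had 1 higher gene with offset 16, median centring or the block, and 2 lower with the scanner's ratio, offset 16, the deposited table or without slide 2, but 0 with median centring or the 12-array filter. Step 4 enriched cells had 1 lower with median centring, 3 with the 12-array filter and 0 higher without slide 2. Step 5 control cells had 2 higher with the scanner's ratio or the deposited table. Step 5 enriched cells had 2 higher with median centring, 0 without slide 2 and 1 lower with the 12-array filter. The block changed no other call count by over 1.5 times.

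Leaving out 1 array gave, at step 4, 0 to 4 higher and 2 lower, at step 5, 0 to 1 higher and 4 to 7 lower, and between control steps 0 to 1 higher. Against mESC it gave 0 to 1 higher and 0 to 2 lower in step 4 control, 1 higher and 4 to 5 lower in step 4 enriched, 4 higher in step 5 control, and 0 to 1 higher and 2 to 4 lower in step 5 enriched cells. Over all genes, median centring turned 3340 higher and 3610 lower at step 4 into 4782 and 2575, and 4527 and 4501 at step 5 into 5958 and 3057. Signal near background limits the 17 Hox genes that were not tested.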
